A study of Mus musculus with 24 samples.

Results

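The genes described here are 10 genes of the circadian clock and its direct outputs: Dbp, Tef, Per1, Per2, Per3, Cry1, Cry2, Arntl, Clock and Bhlhe40. They were looked up by gene symbol in the annotation of the array platform, where 7 of the 10 genes have a probe. Those 7 genes have 9 of the 20205 probes and are 7 of the 9834 genes that the platform names by a single symbol. Dbp, Per1, Per3, Cry1 and Bhlhe40 have 1 probe each, and Tef and Per2 have 2 each. Cry2, Arntl and Clock have no probe in that table and were not analysed here. The genes were proposed with their ratios in these same data already in view, so those ratios are given as a description and carry no test.

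The study asked which transcripts differ in mice without Nur77, the orphan nuclear receptor encoded by Nr4a1. RNA of Nur77-/- mice was set against RNA of wild-type Nur77+/+ mice on 2-colour cDNA arrays in lung, spleen, testis, skeletal muscle, heart and brown adipose tissue. Each organ has 4 arrays. In every organ the mutant pool carried the dye Cy5 on replicates 1 and 2 and the dye Cy3 on replicates 3 and 4. The pools are said to hold 7 mutant and 7 wild-type mice, although the labelling text speaks of 6 control animals. The 4 arrays of an organ are therefore repeated hybridisations of 1 pair of pools, and their spread holds the hybridisation error and not the spread between animals. The labels name the genotypes only as Nur77-/- and wild type, and do not say how the gene was disrupted. They give no strain, age, sex or hour at which the organs were taken, and clock transcripts change over the day. The wild-type channel of heart replicate 2 is labelled as skeletal muscle. The files used here hold ratios and no levels, so the organ's own marker genes could not be checked for presence.

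The circadian clock is a feedback loop of transcription. CLOCK and ARNTL (also called BMAL1) bind E-box motifs and drive the Per and Cry genes, whose proteins then inhibit CLOCK and ARNTL. The same pair drives Dbp and Tef, whose proteins bind D-box motifs and pass the rhythm on to metabolic genes, while Bhlhe40 (DEC1) represses transcription through E-boxes. The loop runs in nearly all cells of the body, muscle, spleen and lung among them.

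The motifs that link these genes can be read in the sequences just before their start sites. RefSeq promoter windows of GRCm38.p6, from 250 bases before to 50 bases after each start, hold 13 windows of 8 of the 10 genes. Per2 and Bhlhe40 have no entry. The E-box was searched as CACGTG, which reads the same on both strands, and the D-box as TTATGTAA on both strands. The stretches below are printed because they hold the motif of the loop (Cry1, Per1 and Tef) or of its output arm (Per3), with the motif in capitals and 15 bases on each side, 5′ to 3′ on the gene's strand. The Cry1 stretch lies at chr10:85185094-85185129 on the minus strand, Per1 at chr11:69098768-69098803 on the plus strand, Per3 at chr4:151044801-151044885 on the minus strand, and Tef at chr15:81802531-81802566 on the plus strand.
Cry1: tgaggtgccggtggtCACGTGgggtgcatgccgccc
Per1: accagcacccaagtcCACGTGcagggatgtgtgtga
Tef: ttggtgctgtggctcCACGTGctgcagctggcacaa
Per3: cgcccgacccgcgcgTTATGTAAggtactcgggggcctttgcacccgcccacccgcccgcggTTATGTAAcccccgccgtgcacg

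An E-box was found in 7.15% of all 32851 windows. Cry1 has 1 in its only window, Per1 has 1 in 1 of its 2 windows, and Tef has 1 in each of its 2. The Per3 window holds 2 copies of the D-box. A D-box was found in 0.938% of all windows, and 7 windows (0.0213%) held 2 or more. The related E-box form CACGTT, or AACGTG on the other strand, lies in the windows of Cry1 and Cry2 and in 4.68% of all windows. The other D-box form, TTACGTAA, lies in 0.119% of all windows and in none of these genes' windows. The windows of Dbp, Arntl and Clock have no match to any of the 4 forms, which says only that these letters are not within those 300 bases.

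All ratios below are the deposited log2 ratios of mutant over wild type. That direction is likely but not stated. It rests on Nr4a1, whose value was below 0 on 21 of the 22 arrays that measured it, under both dye arrangements, although where that probe lies with respect to the disruption is not known here. By the linear model below, the Nr4a1 estimates ran from -1.73 in skeletal muscle to -0.24 in testis. Only 1 of the 6 organs passed the threshold given there. With the signs of the Cy3 arrays turned, the mean Dbp ratio was 0.30 in skeletal muscle and 0.47 in spleen, and between -0.09 and -0.06 in lung, testis and heart. A further 1.24% of all values lie in a separate mode beyond a size of 12, from 15.704 upwards, while the largest size below that is 9.942. They were treated as missing, and 2 of them belong to these genes: 1 value of Cry1 in brown adipose tissue (16.527) and 1 of Bhlhe40 in heart (-16.623). The 22 arrays counted for Nr4a1 also leave out what it had in that mode. With such values kept, the residual SD of Nr4a1 in the linear model was 3.69 in place of 0.406. Whether what was left out goes with the direction was not examined.

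Dbp was the member with the highest ratio in skeletal muscle, and it was above 0 on 22 of 24 arrays. Dbp encodes the D-box binding transcription factor whose transcript is among the most strongly cycling outputs of the clock in many tissues. In skeletal muscle its ratios were 2.41 and 2.26 on the arrays with the mutant in Cy5, and 1.75 and 1.72 on those with it in Cy3. In spleen they were 1.72 and 1.58 in Cy5 and 1.46 and -0.05 in Cy3. The 4 muscle arrays lay at 1.716 or more, whichever dye the mutant pool carried, whereas 1 spleen array lay near 0 and apart from the other 3.

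In heart the Dbp ratios were 0.02 and 1.07 in Cy5 and 0.65 and 0.67 in Cy3. In lung they were 0.35 and 0.43 in Cy5 and 0.77 and 0.28 in Cy3. Neither organ had a value below 0, but the largest heart value is that of the array with the wild-type channel labelled skeletal muscle, and without it the heart estimate was 0.48 in place of 0.60. On that array the medians of the cardiac and skeletal muscle marker lists stood at -0.03 and 0.02 from the array median. On the other 3 heart arrays they lay between -0.51 and -0.28 and between -0.28 and -0.04. In testis the ratios were 0.22, 0.09, 0.31 and 0.35, all small and above 0. In brown adipose tissue they were 0.22, 0.28, 0.35 and -0.40, on both sides of 0.

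A linear model over the 24 arrays (limma), with 1 coefficient per organ and a dye term, gave a Dbp estimate of 2.03 ± 0.27 (SE, n = 4 arrays) in skeletal muscle, a level 4.09-fold higher in the mutant pool. It gave 1.17 ± 0.27 in spleen (2.26-fold), 0.60 ± 0.27 in heart, 0.46 ± 0.27 in lung, 0.24 ± 0.27 in testis and 0.11 ± 0.27 in brown adipose tissue. Each SE of this model rests on a spread pooled over the arrays of all organs, and not on the 4 arrays alone. With each organ fitted alone, the Dbp SE was 0.43 in skeletal muscle and 0.46 in spleen. In the other organs it lay between 0.15 (testis) and 0.24 (lung). By the threshold applied to all rows of the table, an adjusted p under 0.05 within the organ, Dbp was called in skeletal muscle and spleen. In skeletal muscle 5.58% of the 11974 rows tested were called (3.36% as higher), and in spleen 1.53% of 11217 (0.597% as higher). The split by direction depends on the direction of the ratio: with the Cy3 signs turned, 56 rows were called higher and 847 lower in skeletal muscle in place of 402 and 266, and 23 and 138 in spleen in place of 67 and 105. Nothing is read from that, since the gene was chosen on these ratios. With replicate 1, 2 or 3 left out in every organ, Dbp in spleen was at 1.04, 1.07 and 1.003 and not called, and without replicate 4 it was at 1.58 and called. In skeletal muscle it was called in all 4 of these fits. In whole organs, a changed number of cells of a type that express a gene and a changed amount of its RNA per cell cannot be told apart. In order of estimate, heart, lung, testis and brown adipose tissue lie within 2 standard errors of their neighbours.

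**Figure D1:**
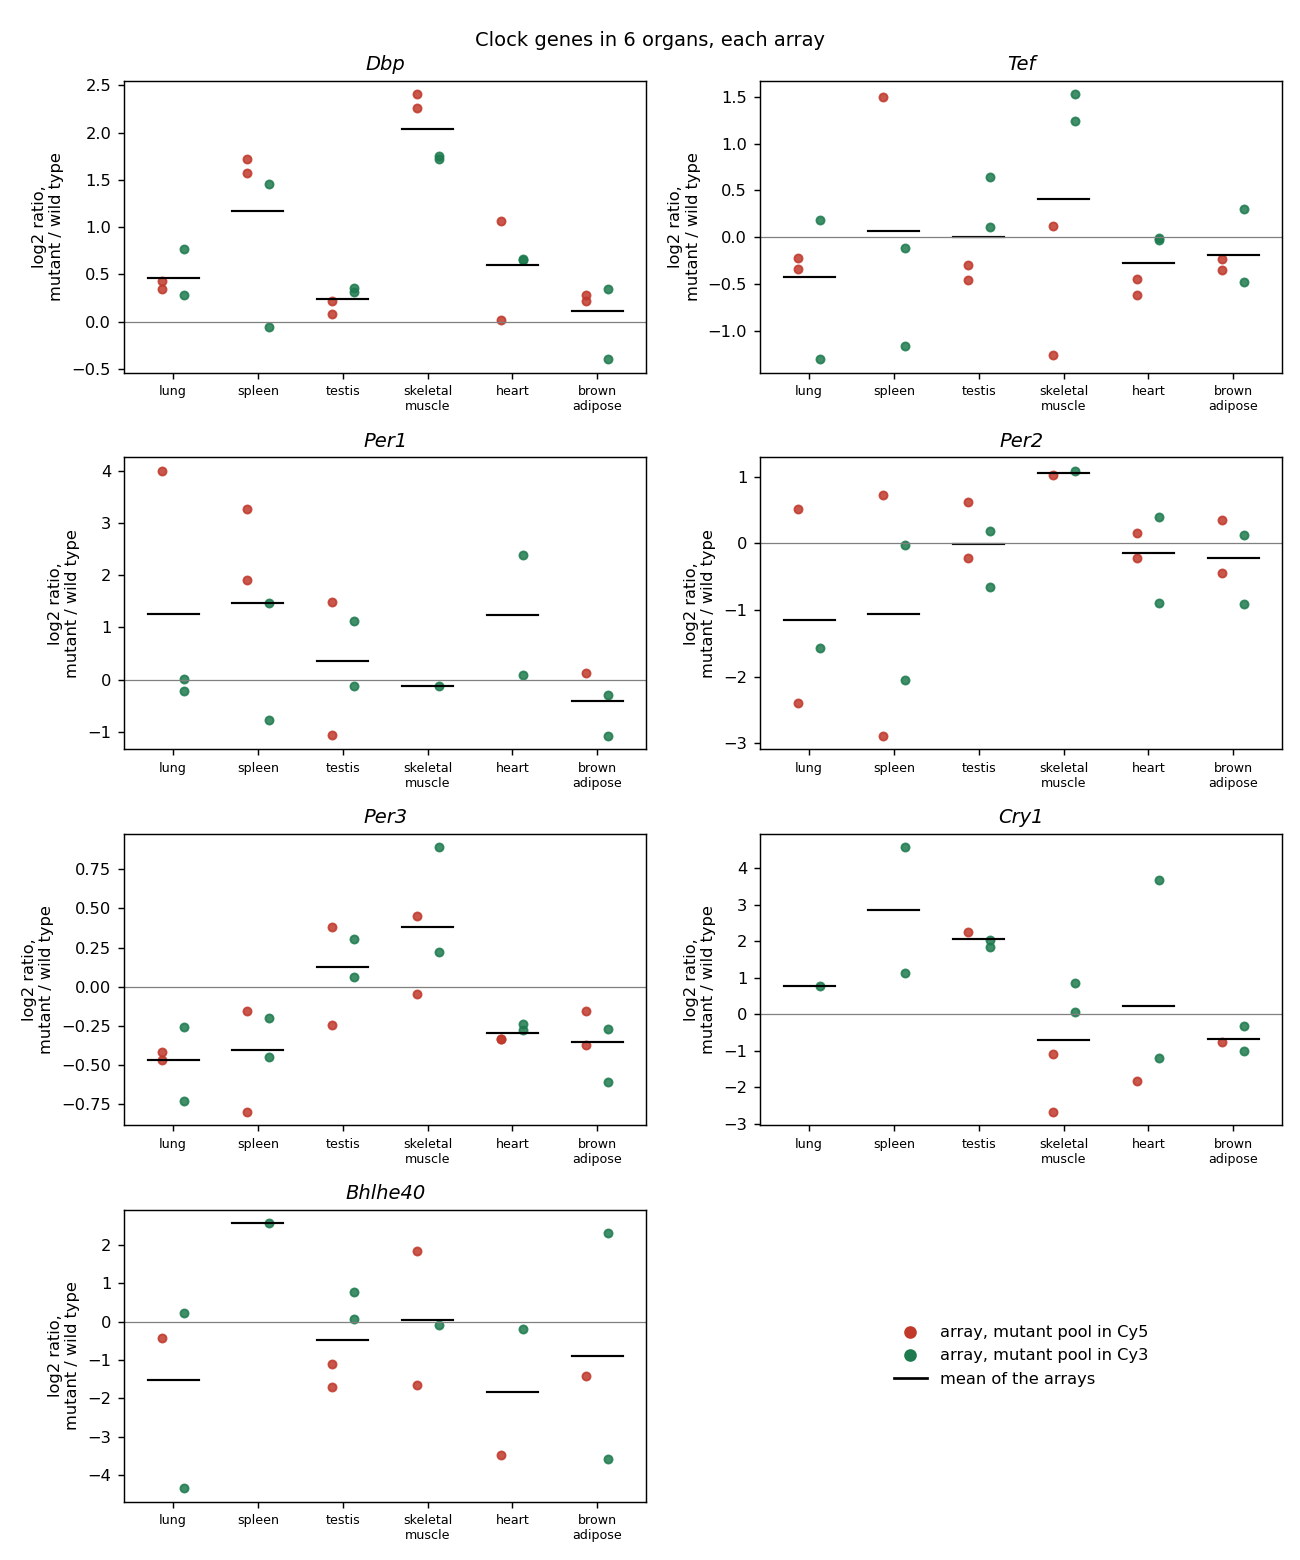
Deposited log2 ratio (mutant over wild type) of the 7 clock genes that have a probe, by organ, on each array; points are arrays, coloured by the dye of the mutant pool, and lines are the mean of the arrays with a value. Dbp lies at 1.716 or above on all 4 skeletal muscle arrays, Per3 as deposited lies below 0 on all arrays of lung, spleen, heart and brown adipose tissue, and Per1, Cry1 and Bhlhe40 scatter over several log2 units with arrays missing.

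The probes listed directly before Dbp in the deposited table showed much the same ratios, and Dbp cannot be described without them. The probe 1 step before it, Nagk (a kinase of N-acetylglucosamine), had mean ratios of 1.51 in skeletal muscle and 0.84 in spleen. Trak2, an adaptor of mitochondrial transport 3 steps before it, had 1.26 and 1.09. The probes without a symbol at 2 and 4 steps before it had 1.88 and 1.70 in skeletal muscle and 1.04 and 1.09 in spleen. Nagk, Trak2 and both unnamed probes thus had means above 1 in skeletal muscle, as Dbp did.

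Their values also followed those of Dbp from array to array. In spleen Trak2 read 1.52, 1.39, 1.19 and 0.27 on replicates 1 to 4, and the unnamed probe 2 steps before Dbp read 1.59, 1.18, 1.44 and -0.05. Replicate 4 was the lowest for both, as it was for Dbp. After centring each array on its median, the correlation of these 4 neighbours with Dbp over the 24 arrays lay between 0.925 (Trak2) and 0.978. Of the probes after Dbp, Sod3 (extracellular superoxide dismutase), 1 step away, had a mean of 1.40 in skeletal muscle but -0.12 in spleen.

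Over a wider stretch, 38 probes within 25 steps of Dbp had values with it on at least 20 arrays. Their correlation with Dbp had a median of 0.675 and a range of -0.286 to 0.978, against a median of 0.095 over 10494 probes. Of the 47 rows tested within 25 steps, 14 (29.8%) were called as higher in skeletal muscle and 4 of 48 (8.33%) in spleen, and none in the other organs. Dbp correlated at 0.933 with the median of the 10 probes before and the 10 after it, which is more than 99.9% of the 3083 probes measured on all 24 arrays (median 0.237). These correlations are descriptions over arrays that share pools within an organ. Whether the order of the table follows the position on the slide is stated by none of the sources read. The part that neighbouring probes share with Dbp in its ratio was not tested.

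**Figure D2:**
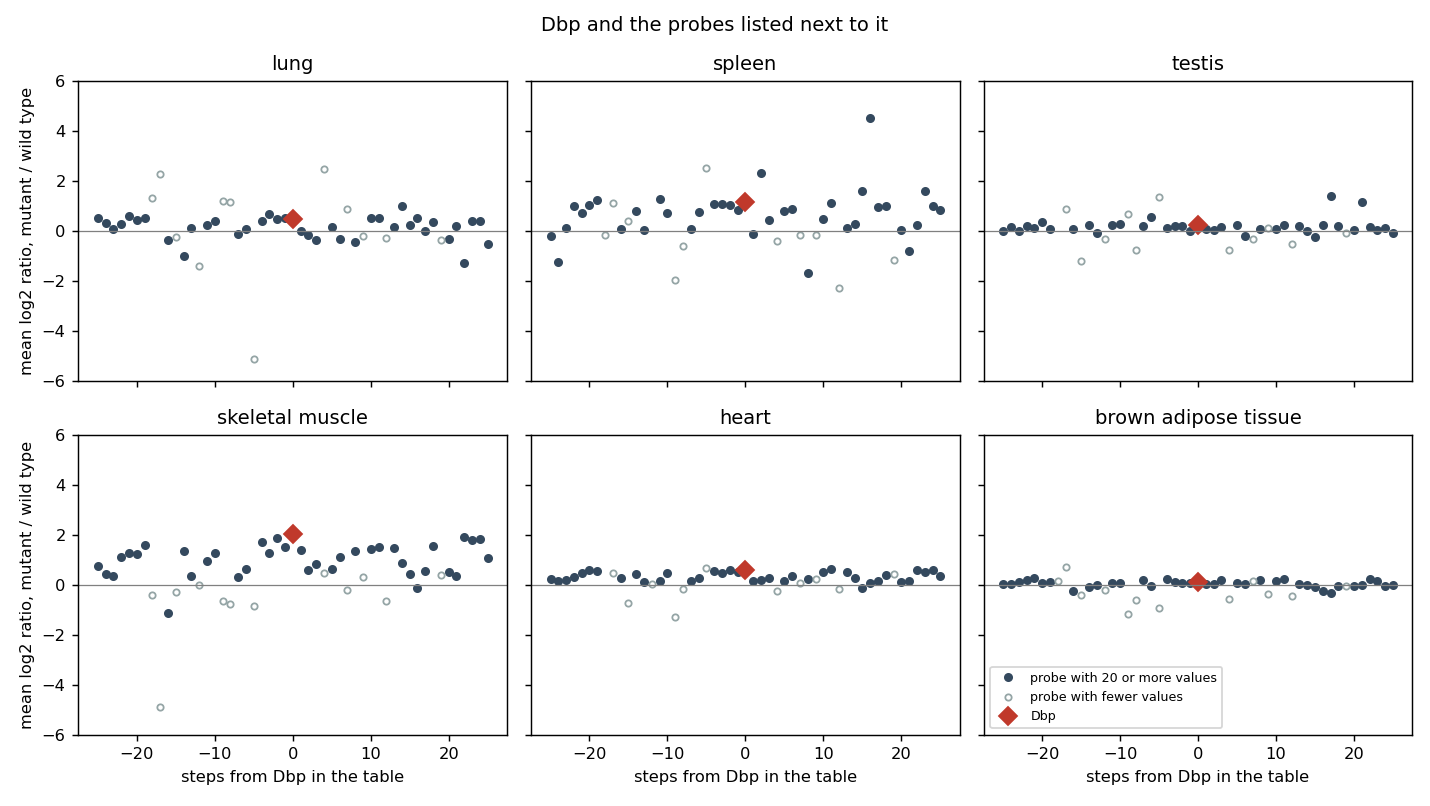
Mean log2 ratio (mutant over wild type) in each organ of Dbp (diamond) and of the probes up to 25 steps before and after it in the deposited table; filled points have 20 or more values over the 24 arrays, open points fewer. In skeletal muscle the neighbours' means lie mostly above 0, and the 4 probes directly before Dbp (1.26 to 1.88) come close to its 2.03.

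With that local median taken off, the Dbp ratio was smaller in all 6 organs. In skeletal muscle the median of the 10 probes on each side was 1.08, and Dbp stood 0.96 ± 0.36 (SD, n = 4) above it. In spleen the local median was 0.58 and Dbp stood 0.59 ± 0.54 above it. In lung the remainder was 0.07, in testis 0.14, in heart 0.29 and in brown adipose tissue 0.05. The remainder in skeletal muscle was 0.77 with 5 probes and 0.97 with 25 probes on each side, and in spleen 0.25 and 0.56. The muscle value was still called with 10 and 25 probes and no longer with 5, and the spleen value was called with none of the 3. With 10, 25 and 5 probes on each side, 551 of 11974, 535 of 11974 and 499 of 11973 rows were called in skeletal muscle. In spleen 152, 154 and 179 of 11217 rows were called. Nothing is read from the calls of Dbp, since the gene was chosen on its ratios. These windows were chosen after the values had been seen.

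**Figure D3:**
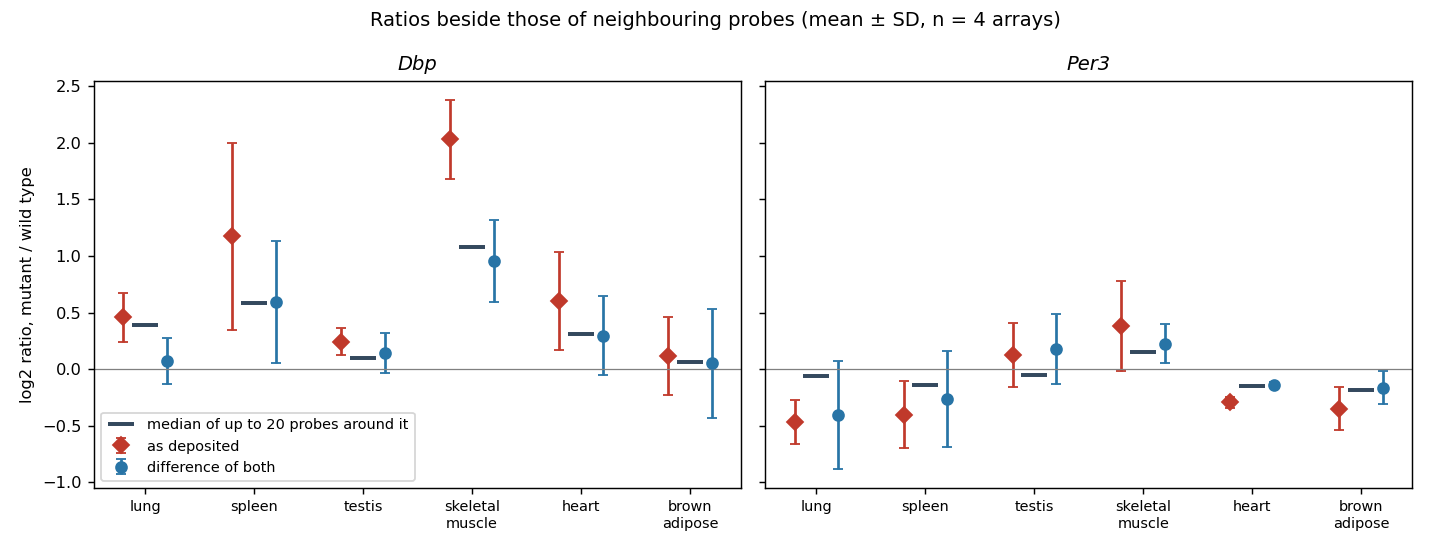
Mean log2 ratio (mutant over wild type) of Dbp and Per3 as deposited (diamonds), the median of up to 20 probes around each in the table (dashes) and the difference of both (circles), by organ; bars are the SD over 4 arrays. In skeletal muscle Dbp stands at 2.03, its surroundings at 1.08 and the difference at 0.96.

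The arrays themselves differed in skeletal muscle and spleen. The medians of the 4 skeletal muscle arrays were -0.44, -0.78, -0.01 and 0.67, a wider range than in any other organ. Measured from these medians, Dbp stood at 2.84, 3.04, 1.76 and 1.04. Markers of skeletal muscle, 11 of them on the platform, had medians of 0.83, 1.26, 0.19 and -1.16 relative to the same array medians, with 0 of 11, 0 of 11, 4 of 11 and 9 of 9 below. Centred Dbp and the muscle markers thus had the same order over the 4 arrays, with the same array medians subtracted from both, and the part of this in the Dbp ratio was not tested. With every array centred on its median Dbp was at 2.18 in skeletal muscle and still called, and at 1.23 in spleen and not called. After scaling to an equal spread as well, it was at 1.39 and 0.90 and called in neither. In spleen, of the 9 markers of exocrine pancreas on the platform (digestive enzymes of the neighbouring gland), 8 of 9, 8 of 8, 8 of 9 and 7 of 8 with a value lay below the array median on replicates 1 to 4. The median of that list was -4.68, -5.08, -3.76 and -5.08 from the array median. Dbp read 1.72, 1.58, 1.46 and -0.05 on the same 4 arrays, and the part of these markers' tissue in the Dbp ratio was not tested.

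Tef encodes a close relative of DBP that binds the same D-box motif. Its 2 probes, averaged, gave 23 values, of which 15 were below 0. The estimates lay between -0.42 ± 0.41 in lung and 0.41 ± 0.41 in skeletal muscle, and no organ was called. In skeletal muscle the ratios were 0.11, -1.25, 1.24 and 1.53, higher on both arrays with the mutant pool in Cy3. In heart these averages were -0.62, -0.44, -0.03 and -0.01, all below 0, and here too the 2 Cy3 arrays were the higher ones. Taken singly, 1 probe ran from -0.32 to -0.11 in heart and the other from -0.99 to 0.26. The probes differed in lung, where 1 averaged -0.10 over 4 arrays and the other -1.47 over 2. In the same order they averaged -0.16 and 0.52 in spleen, -0.31 and 0.35 in testis, and 0.80 and 0.01 in skeletal muscle.

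Among the repressors of the loop, Per3 had the steadiest values. PER3 is a period protein that binds PER and CRY partners and is regarded as less essential to the core loop than PER1 and PER2. Its ratios were -0.42, -0.47, -0.73 and -0.26 in lung. In spleen they were -0.80, -0.16, -0.20 and -0.45. In heart they were -0.33, -0.33, -0.28 and -0.24. Brown adipose tissue showed the same side, with -0.37, -0.16, -0.61 and -0.27, so that all 16 arrays of these 4 organs lay below 0 as deposited. Measured from the array median, 14 of the 16 lay below 0, and spleen replicates 2 and 3 stood at 0.14 and 0.00.

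In testis and skeletal muscle Per3 was not below 0 throughout. The testis ratios were 0.38, -0.25, 0.06 and 0.31, and the muscle ratios were -0.05, 0.45, 0.89 and 0.22. The model gave Per3 estimates of -0.47 in lung, -0.40 in spleen, -0.35 in brown adipose tissue, -0.29 in heart, 0.13 in testis and 0.38 in skeletal muscle, each ± 0.22 (SE, n = 4). None was called, and no 2 neighbours in that order differ by more than 2 of these standard errors. The Per3 residual SD was 0.263, lower than that of all but 1.39% of rows (median 0.825), and that of Dbp was 0.434, at the 12.9th percentile.

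The neighbours of Per3 in the table followed it less closely, with a correlation of 0.677 over 24 arrays with the median of the 10 probes on each side. With that median taken off, the remainder was -0.41 ± 0.48 (SD, n = 4) in lung, -0.26 ± 0.43 in spleen, -0.14 ± 0.02 in heart and -0.17 ± 0.15 in brown adipose tissue. The sign in these 4 organs held with 10 and 25 probes on each side, and with 5 probes the spleen value was 0.29. With the signs of the Cy3 arrays turned, Per3 stood at 0.03 in lung and 0.09 in brown adipose tissue.

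Per1 and Per2, the main period genes of the loop, had wider spreads and missing arrays. Per1 had 17 values. In spleen they were 1.91, 3.27, -0.78 and 1.46, and the estimate was 1.47 ± 0.64 (SE). In lung 3 arrays gave 4.0, -0.23 and 0.01, of which only replicate 2 lay far from 0, and the estimate was 1.52 ± 0.75. In testis the Per1 ratios ran from -1.06 to 1.48. Skeletal muscle had 1 value (-0.12), and heart had 2 (2.39 and 0.09), all from arrays with the mutant pool in Cy3.

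Per2 had 21 values from 2 probes. In lung they were -2.40, 0.51 and -1.57, and in spleen 0.72, -2.89, -2.05 and -0.02. The estimates there were -1.20 ± 0.60 and -1.06 ± 0.51 (SE), the lowest of the period genes, on arrays that disagree in sign. In testis, heart and brown adipose tissue the Per2 estimates lay between -0.22 and -0.02, and in skeletal muscle the only 2 values were 1.03 and 1.09. The 1.03 is the average of 2 probes that read 2.12 and -0.07, and the 1.09 comes from 1 probe alone. The probes differed most in spleen, where 1 averaged -0.75 over 4 arrays and the other -3.09 over 2.

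Cry1 encodes a cryptochrome that closes the loop by inhibiting CLOCK and ARNTL. It had 16 values. In testis the 3 arrays with a value read 2.27, 1.85 and 2.03, close together and in both dye arrangements, and the model estimate, which takes the dye term into account, was 1.81 ± 0.89 (SE). It moved by more than the spread of these arrays in 9 of 17 other settings, from 3.24 with arrays centred and scaled down to -0.54 with the Cy3 signs turned. In brown adipose tissue the 3 values were -0.76, -1.0 and -0.32 and the estimate was -0.93 ± 0.89. With the value from the separate mode kept in, that estimate was 3.61. In skeletal muscle the Cry1 ratios were -1.10 and -2.69 on the Cy5 arrays and 0.06 and 0.86 on the Cy3 arrays, so the sign followed the dye. Spleen gave 4.58 and 1.12, both in Cy3, and lung a single value of 0.79.

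Bhlhe40, the repressor that acts through E-boxes, had 16 values with a wide spread. In lung it read -0.43, 0.22 and -4.35, and in brown adipose tissue -1.40, -3.59 and 2.30. In testis it read -1.70 and -1.10 on the Cy5 arrays and 0.76 and 0.07 on the Cy3 arrays, so the sign followed the dye. Skeletal muscle gave -1.64 and 1.84 in Cy5 and -0.08 in Cy3. Heart gave -3.47 in Cy5 and -0.19 in Cy3, and spleen a single value of 2.56 in Cy3. The estimates were -1.65 ± 1.13 (SE) in lung, -1.03 ± 1.13 in brown adipose tissue, -0.49 ± 0.97 in testis and 0.17 ± 1.13 in skeletal muscle. In lung replicate 4 alone lay far from 0. The SD over the arrays of an organ was between 1.11 and 2.98.

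Counted by organ, 6 of the 7 genes had enough arrays to be tested in lung, 5 in spleen, 7 in testis, 5 in skeletal muscle, 5 in heart and 7 in brown adipose tissue. Apart from Dbp in spleen and skeletal muscle, none was called. Over all rows 0.0809% were called in lung (0.00809% as higher) and 0% in testis, heart and brown adipose tissue, where 491, 284 and 102 rows had an unadjusted limma p under 0.05. With array weights 6, 24 and 6 rows were called there, none of them a clock gene named here. The median estimate of the tested members was 0.38 in skeletal muscle beside -0.16 over all rows, and -0.45 in lung beside -0.01. In the other organs it was 0.02 in spleen, 0.13 in testis, -0.14 in heart and -0.22 in brown adipose tissue, beside medians between -0.07 and 0.02 over all rows.

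The dye orientation is another contrast than the ratio itself, and it was fitted for the 3 genes measured in every organ. It uses the same array values that were in view when the genes were proposed, so its p-values are no independent test. The dye term, mutant in Cy5 minus mutant in Cy3 over all organs, was 0.23 ± 0.20 (SE) for Dbp, higher by that much on the Cy5 arrays (limma, adjusted p = 0.608). It was -0.30 ± 0.33 for Tef (adjusted p = 0.701) and -0.08 ± 0.15 for Per3 (adjusted p = 0.842). None passed, while 21 of the 7553 rows tested (0.278%) did and 1121 had an unadjusted p under 0.05. The median size of the dye term over all rows was 0.32. The term averages over organs that differed in sign. Tef was higher in Cy3 in testis, skeletal muscle, heart and brown adipose tissue, and in Cy5 in lung and spleen. In skeletal muscle Tef averaged -0.57 in Cy5 and 1.385 in Cy3. Dbp was higher in Cy5 in spleen, skeletal muscle and brown adipose tissue, and in Cy3 in lung, testis and heart. With the Cy3 signs turned the Dbp term was 1.54 ± 0.34 (limma, adjusted p = 0.0994), and again none of the 3 genes passed.

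Beyond the 10 genes, 41 further clock genes were listed by their role, and 25 of these are on the platform. Over the 6 organs 133 pairs of gene and organ were tested, and 1 passed. That was 1 of 22 genes tested in spleen, where 1.53% of all rows were called. None of 20 passed in skeletal muscle, where 5.58% of all rows were, so the count is near the background. Csnk1a1, a casein kinase that phosphorylates period proteins, was higher in spleen by 0.93 ± 0.20 (SE, n = 4; limma, adjusted p = 0.0243), with 0.84 and 0.61 on the Cy5 arrays and 1.01 and 1.25 on the Cy3 arrays. Its 4 probes disagreed there, with means of 0.90, -0.31, 1.78 and 1.44. It passed in none of the 4 fits that left out a replicate number, in which it lay between 0.82 and 1.03. With the Cy3 signs turned it stood at -0.20.

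By role, 8 of 12 further genes of the feedback loop, 9 of 14 regulators of clock proteins and 8 of 15 clock-controlled outputs are on the platform. The gene with the largest ratio of constant sign in each organ did not pass. Wdr5, a subunit of histone methyltransferase complexes that is found with period proteins, read 3.27, 2.49, 1.88 and 1.63 in lung (2.32 ± 0.65, adjusted p = 0.285). In heart its estimate was 1.24 ± 0.76 and in brown adipose tissue -0.57 ± 0.76 (adjusted p = 1.0 in both). Wdr5 is the average of 3 probes, whose separate values are not given here, and its values of a size above 12 were left out. With those kept, its residual SD was 5.25 in place of 1.37. Tspo, a mitochondrial outer membrane protein, was at -2.49 ± 0.99 in spleen (adjusted p = 0.242) and at 2.13 ± 0.85 in testis (adjusted p = 1.0). Timeless was at -2.57 ± 0.98 in skeletal muscle (adjusted p = 0.148), where 1 of its 3 arrays read -5.95. With the Cy3 signs turned, Wdr5 stood at 0.56 in lung, -0.51 in heart and -0.73 in brown adipose tissue, Tspo at -1.88 in spleen and 0.21 in testis, and Timeless at -1.81 in skeletal muscle. The sign of Wdr5 in heart is thus not settled, and neither is this ranking. The medians of the further clock genes lay between -0.03 and 0.08 in all 6 organs.

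**Figure D4:**
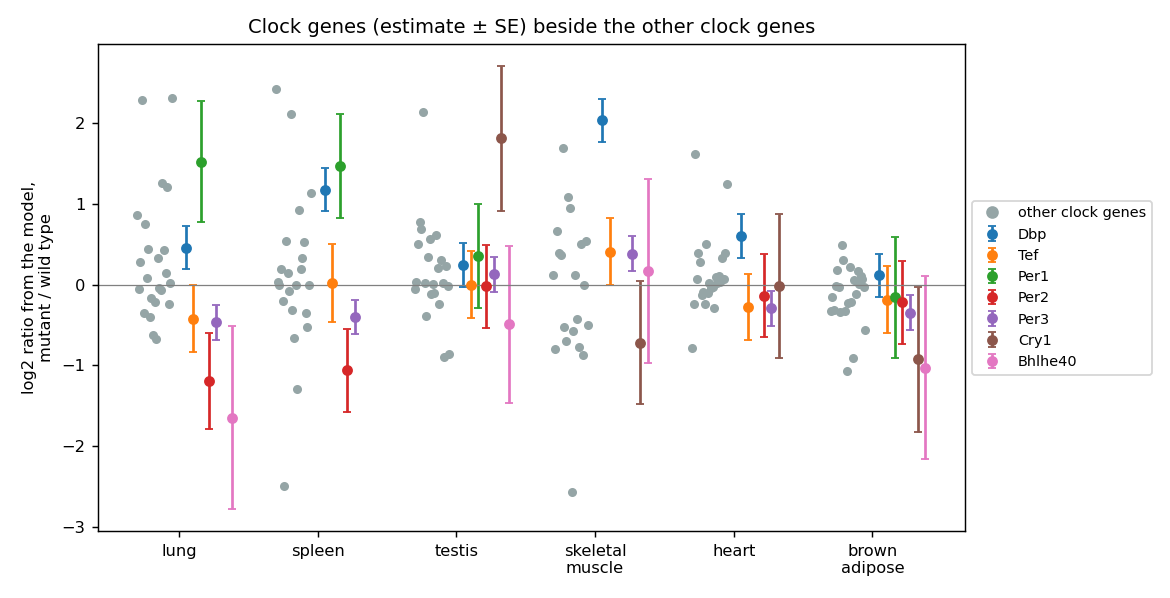
Log2 ratio (mutant over wild type) from the linear model in each organ for the 7 clock genes (coloured points, bars are SE) and for the other clock genes tested (grey points). In skeletal muscle Dbp (2.03) lies above the other clock genes, which reach from -2.57 to 1.69.

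Genes were also ranked by how closely their ratios followed those of Dbp over the arrays, with each array centred. Among 6554 genes with values on at least 20 arrays shared with Dbp, the median correlation was 0.056. Cuedc2 followed Dbp most closely, at 0.960, and then came Polr2f (an RNA polymerase subunit) at 0.926, Asic2 (an acid-sensing ion channel) at 0.920, Psmd13 (a proteasome subunit) at 0.907 and Tubb4b (a tubulin) at 0.898. These 5 genes had means between 1.16 and 1.83 in skeletal muscle and between 0.40 and 1.08 in spleen. Cuedc2, Asic2 and Polr2f are listed 24, 134 and 160 steps from Dbp, while Psmd13 is 1341 steps away and the 2 probes of Tubb4b 7980 and 8474 steps. Of the 20 probes most like Dbp, 6 lay within 25 steps of it, a stretch that holds 0.362% of the probes compared, and 12 within 200.

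The clock members were not among the closest to Dbp. Per3 correlated with it at 0.595 over 24 arrays, above 94.5% of genes, although Per3 lay below 0 in 4 organs in which the mean of Dbp was above 0. Both genes had their highest organ mean in skeletal muscle. Tef correlated at 0.396 over 23 arrays (above 82.8% of genes) and Per2 at 0.170 over 21 arrays (above 62.5%). Without centring of the arrays the values were 0.334 for Per3, 0.306 for Tef and 0.054 for Per2. Per1, Cry1 and Bhlhe40 had fewer than 20 arrays in common with Dbp and were not ranked. The arrays of an organ share their pools, so these correlations rest on 6 pairs of pools.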

How the data were processed

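The values are log2 ratios, 1 per probe and array, that the authors deposited. The log base was read from the values. The sources used here do not give the scale, the centring, the direction, the background correction, the software or the filter that left cells empty. Each labelling used 20 µg of total RNA, per the labels' protocols. Values of a size above 12 were treated as missing. Probes of 1 symbol (13891 of 20205; 5 have several, 6309 none) were averaged per array, which with the unnamed probes gave 16148 rows. RefSeq's gene table held the Entrez number for 13855 of the 13891 probes with 1 symbol, and 0 symbols changed. Arrays held from 13396 to 19455 values, and the number of arrays limits the precision.

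The limma 3.58.1 model (lmFit and eBayes, R 4.3.3) held 6 organ coefficients and a dye term over the 24 arrays. Rows entered an organ's test with values on at least 3 of its 4 arrays, in both dye arrangements. Benjamini-Hochberg adjustment ran within each organ over all rows, with a threshold of 0.05. P-values measure only the spread between hybridisations of the same pools, estimated for each row over the arrays of all 6 organs together. That spread was unequal. The median SD over the 4 arrays was 1.07 in skeletal muscle and 0.89 in spleen, and between 0.42 (heart) and 0.64 (lung) in the other organs. The part of this in the number of rows called was not tested. The fit was tried on simulated data with independent normal noise of 1 SD per row. Those data held neither unequal spreads of organs nor values shared by neighbouring probes. The trial therefore cannot tell how the fit behaves under these features.

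The members, the gene lists and the tests were chosen with earlier results of these data known. The text names all members, Nr4a1, other clock genes that passed, the largest ratio per organ with 1 sign on every array, and the 5 genes most like Dbp. Neighbouring probes and Csnk1a1's probes were named after their values were seen. Alternatives were another treatment of large values, centring, scaling, array weights, complete rows, the dye term, the direction, each organ alone and left-out arrays. Those added after seeing the data were local medians over neighbouring probes and leaving out skeletal muscle replicates 2 and 4. A planned comparison of protein sequences was not run.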

Additional observations from a re-analysis of the deposited data

Results flagged for a closer look

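Dbp in spleen stood out because replicate 4, at -0.05 (-0.054), lay far from the other 3 arrays. Its gap to the nearest of them was 0.853 of the whole range. Of 25 pairs of clock gene and organ with 4 values, this was the only one marked in this way, and chance marks about 1 in 20. The probe 2 steps before Dbp in the table, which has no symbol, read -0.05 on the same array.

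Cry1 lay above 0 on all 3 testis arrays with a value and below 0 on all 3 brown adipose tissue arrays. The model estimates differed by 2.74 (log2), and the difference was not tested. A 4th brown adipose tissue value, 16.527, lies in the separate mode and was treated as missing.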

How the results depend on the processing

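The count of members called was 2 (Dbp in spleen and in skeletal muscle). It was 1 with arrays centred, with array weights and with the local median of 10 or of 25 probes each side. It was 0 with arrays centred and scaled, with the Cy3 signs turned, with each organ fitted alone and with the local median of 5 probes each side. With each organ fitted alone 0 rows were called in every organ, so that count says nothing about these genes. Centred and scaled, 60 of 11974 rows were called in skeletal muscle and 21 of 11217 in spleen. With the Cy3 signs turned it was 903 of 11974 and 161 of 11217, and with the local median of 5 probes 499 of 11973 and 179 of 11217. Leaving out a replicate number gave 1 to 2. Dbp in skeletal muscle stayed called in each of those 4 fits (1.96 to 2.14). Dbp in spleen was not called without replicate 1 (1.04), 2 (1.07) or 3 (1.003), and was called without 4 (1.58). With the local median of 10, 5 and 25 probes Dbp was at 0.956, 0.772 and 0.969 in skeletal muscle and at 0.071, 0.063 and 0.148 in lung, and with 5 probes at 0.246 in spleen. Centred and scaled, it was at 1.392 in skeletal muscle and 0.388 in testis. With Cy3 signs turned it was at 0.30 in skeletal muscle, -0.07 in lung, -0.09 in testis and -0.058 in heart. Of the other clock genes 1 passed. The count was 0 with arrays centred, centred and scaled, with array weights, with each organ alone and in every fit without a replicate number. It was 3 with Cy3 signs turned (Hlf, Id2 and Ppargc1a in skeletal muscle), where Csnk1a1 stood at -0.20, and 2 without skeletal muscle replicates 2 and 4 (Csnk2a1 was added). Of the 5 genes most like Dbp, 3 were still in the first 5 by Spearman correlation, 2 with the local median of 10 probes each side and 3 to 4 without a replicate number. The dye terms of members gave 0 calls in every fit. The causes of these changes were not tested. In skeletal muscle centring moved the median of all rows from -0.16 to 0.00, and 552 rows passed, 447 of them higher, in place of 668 and 402; centred and scaled it was 60 rows, 58 of them higher. Replicate numbers did not pair the arrays of different organs (correlation of deviations -0.081 to 0.089 over 30 pairs); with the replicate block 2 members and 1 other clock gene were called, and Dbp was at 2.03 and 1.17.

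The arrays measure 1 pair of pools per organ, so no value holds the spread between animals. The hour of collection is not given. The files used here hold no signal levels, so dim spots could not be told from bright ones. Per1, Cry1 and Bhlhe40 lack 7, 8 and 8 of the 24 arrays.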
